A study of Mus musculus with 30 samples.

Results

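The genes described here build, cross-link or organise the extracellular matrix of the heart. They were a list of 46 symbols: 5 fibrillar collagens, 11 basement membrane genes, 8 other collagens, 5 fibronectin and elastic fibre genes, 7 matricellular genes, 3 lysyl oxidases, 5 proteoglycans and 2 genes that mark fibroblasts. All 46 were found, among 78258 genes in the table of the postpartum study and 56691 in that of the diet study. Reads sufficed for a test of 42 of them in postpartum and naive hearts and of 41 on the diets. Col4a3, Col12a1 and Spp1 were tested in neither study, Col8a2 only in the diet study, and Thbs1 and Tcf21 only in the postpartum study.

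Hearts came from mice with the S55L mutation of CHCHD10, a protein of the mitochondrial intermembrane space, and from wild-type (WT) mice. Postpartum (PP) animals of either genotype had been bred at 65 days and were killed on postpartum day 0, and naive animals of either genotype had been aged to 100 days. In a separate diet study every animal was S55L and PP, and had received either EH301, a supplement of nicotinamide riboside and pterostilbene, or a control diet while breeding. The sex of the naive animals, the number of mutant alleles and whether each library was a separate mouse are not given in the sources used here, so p-values measure the spread between libraries, which may be technical. The groups used were S55L PP (4 libraries), S55L naive (5), WT PP (4), WT naive (5), EH301 diet (4) and control diet (4). Each group had 5 deposited columns. Columns 1 and 2 of S55L PP held identical counts, as did columns 1 and 2 of WT PP, and each pair was counted as 1 library. EH301 diet column 6 was identical to control diet column 5, and both were left out. Values below are in the order of libraries 1, 3, 4 and 5 for PP groups, 1 to 5 for naive groups, 7 to 10 for EH301 and 1 to 4 for the control diet.

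Fibrillar collagens assemble into the stiff fibres between muscle cells, and lysyl oxidases cross-link these fibres and elastin after secretion. Basement membranes are thin sheets of type IV collagen and laminin that surround cardiomyocytes and capillaries. Matricellular proteins bind matrix and cells without forming fibres, and several are known to be made mainly during growth, injury or repair. Fibroblasts make most of the fibrillar collagen of the heart.

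Libraries held 2755500 to 4157372 reads on genes in S55L PP, 3369420 to 5131316 in S55L naive, 1897249 to 2949993 in WT PP and 1418715 to 2307283 in WT naive. In the diet study they held 1141997 to 3048461 on EH301 and 466651 to 2982870 on the control diet. Chchd10, which carries the mutation, averaged 4170 ± 1298 CPM in S55L PP, 4501 ± 715 in S55L naive, 3410 ± 1266 in WT PP and 2719 ± 227 in WT naive (SD). CPM are reads of a gene per 1000000 reads on genes after scaling between libraries. The libraries read the 3′ ends of transcripts, and levels are compared here between groups and not between genes.

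The sequences just upstream of 3 of these genes are shown because 28 members were higher in S55L than in WT hearts in each genotype comparison. RefSeq windows of 250 bases before the transcript start (build GRCm38.p6) were at hand for 29 members. They were searched on both strands for CCAAT (the CCAAT box), for TATAAA (the TATA box), for TGANTCA (the core that AP-1 factors bind) and for GGAATG (the core that TEAD factors bind). Thbs4 and Col3a1 are printed as genes that were higher in S55L hearts in both comparisons and hold GGAATG, and Lama2 as a gene that passed in neither and holds none of these motifs. All are given 5′ to 3′ in the direction of transcription, and capitals mark the motif matches, with CATTCC the reverse complement of GGAATG.
Thbs4, chr13:92794819-92795068, minus strand: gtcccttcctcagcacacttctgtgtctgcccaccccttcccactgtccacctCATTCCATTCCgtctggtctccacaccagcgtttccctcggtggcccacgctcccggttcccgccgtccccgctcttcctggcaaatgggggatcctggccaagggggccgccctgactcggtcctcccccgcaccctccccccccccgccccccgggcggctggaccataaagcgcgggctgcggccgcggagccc
Col3a1, chr1:45311288-45311537, plus strand: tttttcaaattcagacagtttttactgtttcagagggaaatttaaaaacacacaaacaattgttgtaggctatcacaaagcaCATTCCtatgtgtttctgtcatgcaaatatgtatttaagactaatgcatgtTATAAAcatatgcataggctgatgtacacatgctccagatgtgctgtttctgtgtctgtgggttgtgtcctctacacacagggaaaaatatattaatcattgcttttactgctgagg
Lama2, chr10:27616943-27617192, minus strand: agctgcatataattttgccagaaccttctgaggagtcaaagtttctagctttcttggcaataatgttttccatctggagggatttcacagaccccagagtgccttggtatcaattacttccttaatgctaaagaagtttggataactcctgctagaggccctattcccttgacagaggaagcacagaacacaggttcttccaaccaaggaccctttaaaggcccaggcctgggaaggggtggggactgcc

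The Thbs4 matches lie 197 and 192 bases before the transcript start and overlap each other. In Col3a1 the GGAATG match lies 168 bases and the TATAAA match 117 bases before the start. GGAATG was present in the windows of 4 of the 29 members (13.79%) and in 12.63% of all 27025 genes. CCAAT was present in 10 members (34.48%) and 34.46% of all genes, TATAAA in 3 (10.34%) and 12.97%, and TGANTCA in 1 (3.448%) and 6.868%. These counts take the first listed window of each gene; second windows also held GGAATG in Col18a1 and TATAAA in Postn. Of 16 members with a window that were higher in S55L naive, 2 (Thbs4 and Col3a1) held GGAATG in the window counted, and the other holders Col6a2, Nid1 and Col18a1 passed the test in neither comparison. A match is a run of letters in this window and was not tested as a binding site.

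The first question the design asks is how matrix transcripts differ between S55L and WT hearts. At postpartum day 0, 28 of the 42 tested members were higher in S55L PP than in WT PP at an adjusted p below 0.05 in edgeR's quasi-likelihood test, and 0 were lower, against 16.3% higher and 15.2% lower of all 11945 genes tested. In naive hearts, 28 were higher in S55L and 0 were lower, against 21.9% higher and 21.6% lower of all genes. The pair of comparisons shares no library, and 27 members were higher in both, against 1672 of the 11945 genes. The median log2 fold change of the members was 0.89 in PP hearts and 1.04 in naive hearts, where those of all genes were -0.0007 and -0.0039. Every S55L library lay above every WT library for 22 members in PP hearts and 26 in naive hearts, against 13.7% and 16.8% of all genes. The filter on low counts ran over all groups together. Tnc and Lox held at most 3.59 CPM in any WT library, Fmod at most 1.09 CPM and Mfap4 at most 6.31 CPM. Too few WT libraries reached the level of the filter, so these genes reached a test through the S55L libraries. Their place in these counts is therefore no independent support.

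**Figure D1:**
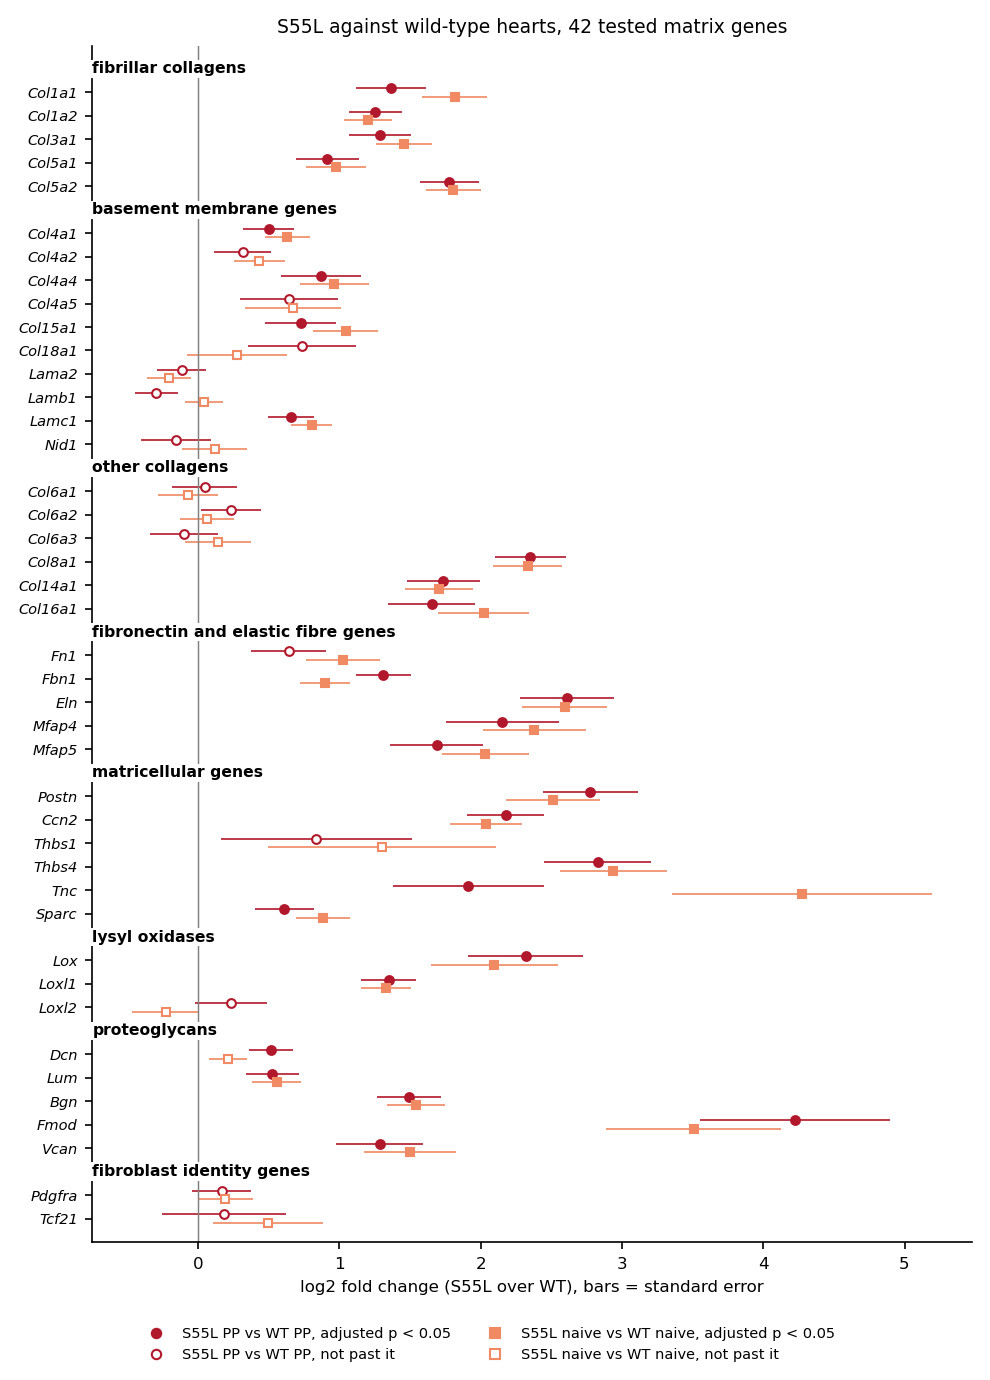
Log2 fold change of each tested matrix gene in S55L PP over WT PP hearts (circles) and S55L naive over WT naive hearts (squares), with standard errors, grouped by role. Filled symbols passed an adjusted p of 0.05 (edgeR). Class medians lie at 1.29 or more for the fibrillar, elastic fibre, matricellular, lysyl oxidase and proteoglycan genes, and at 0.57 or less for the basement membrane and fibroblast identity genes.

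All members together made up 0.533% to 0.753% of the reads on genes in S55L PP, 0.446% to 0.641% in S55L naive, 0.261% to 0.355% in WT PP and 0.230% to 0.278% in WT naive libraries. The S55L and WT ranges did not overlap. More or fewer cells of a type and more or less RNA per cell cannot be told apart in whole hearts.

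Each of the 5 fibrillar collagens was higher in S55L hearts in both comparisons, with a median log2 fold change of 1.29 in PP and 1.46 in naive hearts. Col1a1, a chain of type I collagen, stood at 294, 255, 446 and 301 CPM in S55L PP, against 77.3, 150.2, 90.0 and 184 CPM in WT PP. It stood at 215, 279.8, 361, 242 and 413 CPM in S55L naive, against 70.6, 75.1, 84.8, 99.8 and 98.0 CPM in WT naive. The lowest S55L library of either state was above every WT library. The log2 fold change of Col1a1 was 1.37 (SE 0.25, adjusted p = 0.00017, edgeR) in PP and 1.82 (SE 0.23, adjusted p = 1e-06, edgeR) in naive hearts.

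Col3a1, the chain of type III collagen, a thinner fibre of compliant tissue, had 314, 254, 444 and 336 CPM in S55L PP, against 93.6, 176, 118 and 165 CPM in WT PP. In naive hearts it had 204, 277, 363, 227 and 379 CPM in S55L, against 96.3, 89.8, 96.5, 141 and 103 CPM in WT. Again no WT library reached an S55L library, with log2 fold changes of 1.29 (SE 0.22, adjusted p = 5.8e-05, edgeR) in PP and 1.46 (SE 0.20, adjusted p = 1.9e-06, edgeR) in naive hearts. Col5a2, a chain of type V collagen, which takes part in starting type I fibrils, had the lowest adjusted p of the class in both comparisons. It had 91.1, 91.0, 132 and 97.3 CPM in S55L PP, against 29.0, 25.7, 26.6 and 37.3 CPM in WT PP. It had 47.7, 74.5, 87.0, 59.4 and 104 CPM in S55L naive, against 19.6, 25.3, 18.1, 22.4 and 21.8 CPM in WT naive. S55L and WT libraries of Col5a2 were separated in both states, with log2 fold changes of 1.78 (SE 0.21, adjusted p = 1.5e-07, edgeR) in PP and 1.81 (SE 0.19, adjusted p = 3e-08, edgeR) in naive hearts. Col1a2, the partner chain of Col1a1, had log2 fold changes of 1.25 (SE 0.19) in PP and 1.20 (SE 0.17) in naive hearts. Col5a1, the partner of Col5a2, had 0.92 (SE 0.23) and 0.97 (SE 0.21).

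Chains that assemble into the same collagen were also compared by their ratio in each library. The log2 ratio of Col5a1 to Col5a2 was -0.59, -1.23, -0.96 and -0.57 in S55L PP, against -0.57, 0.38, 0.13 and 0.13 in WT PP. In naive hearts it was -0.64, -0.88, -0.46, -0.66 and -0.86 in S55L, against 0.14, -0.05, 0.37, 0.14 and 0.06 in WT. The mean difference was -0.86 in PP hearts (unpaired exact two-sided permutation p = 0.029, the smallest that 4 against 4 libraries allow, adjusted over 16 ratio tests 0.15) and -0.83 in naive hearts (exact permutation p = 0.0079, the smallest that 5 against 5 allow, adjusted 0.063). The log2 ratio of Col1a1 to Col1a2 averaged -0.06 ± 0.22 in S55L naive and -0.65 ± 0.25 in WT naive (SD, n = 5 each, exact permutation p = 0.0079, adjusted 0.063). It averaged -0.22 ± 0.31 in S55L PP and -0.43 ± 0.61 in WT PP (SD, n = 4 each, exact permutation p = 0.57, adjusted 0.65). WT PP 1, at -0.57 for Col5a1 to Col5a2, lay within the range of the S55L libraries. It was also the only WT library in a plate column shared with S55L. None of the 16 tests passed after adjustment, and these ratios were chosen after the values were seen.

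**Figure D2:**
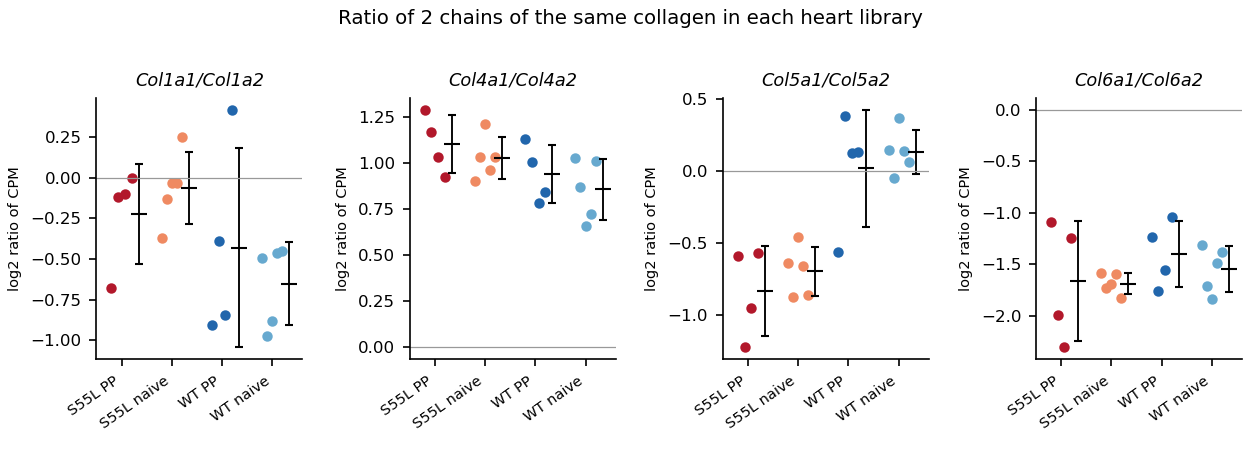
Log2 ratio of CPM of paired chains of the same collagen type in each library (points) with mean and SD (black), in S55L PP (n = 4), S55L naive (n = 5), WT PP (n = 4) and WT naive (n = 5) hearts. Col5a1 to Col5a2 lies below 0 in every S55L library and also in WT PP 1 (-0.57) and WT naive 2 (-0.05). Its means are -0.84 in S55L PP and -0.70 in S55L naive, against 0.02 in WT PP and 0.13 in WT naive. No ratio test passed after adjustment.

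Of 10 tested basement membrane genes, 4 were higher in S55L in both comparisons: Col4a1, Col4a4, Col15a1 and Lamc1. The median log2 fold change of the class was 0.57 in PP and 0.53 in naive hearts. Col4a1, which with Col4a2 forms the type IV network of most basement membranes, had 481, 434, 519 and 395 CPM in S55L PP, against 229, 342, 300.2 and 422 CPM in WT PP. It had 309, 393, 475, 382 and 549 CPM in S55L naive, against 229, 260.5, 294, 310.3 and 267 CPM in WT naive. The groups overlapped in both states, and the log2 fold change was 0.50 (SE 0.18, adjusted p = 0.034, edgeR) in PP and 0.63 (SE 0.16, adjusted p = 0.0025, edgeR) in naive hearts. Its partner Col4a2 did not pass, at 0.32 (SE 0.20, adjusted p = 0.24, edgeR) in PP and 0.43 (SE 0.18, adjusted p = 0.052, edgeR) in naive hearts. Col4a4, a type IV chain best known from kidney, had 0.87 (SE 0.28) and 0.97 (SE 0.25). Col15a1, a collagen of the basement membrane zone, had 0.73 (SE 0.25) and 1.04 (SE 0.23).

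Lamc1, the gamma chain shared by most laminins, had the lowest adjusted p of the class in both comparisons. It had 95.6, 116, 103 and 74.5 CPM in S55L PP, against 54.4, 79.3, 62.2 and 52.7 CPM in WT PP. In naive hearts it had 117, 109.7, 118, 93.2 and 104 CPM in S55L, against 48.9, 70.2, 64.9, 69.4 and 57.9 CPM in WT. The PP groups overlapped and the naive groups did not, with log2 fold changes of 0.66 (SE 0.16, adjusted p = 0.0029, edgeR) in PP and 0.80 (SE 0.15, adjusted p = 8.8e-05, edgeR) in naive hearts. Lama2, the alpha chain of muscle laminin whose upstream window is shown above, had 77.7, 58.9, 67.9 and 83.9 CPM in S55L PP, against 69.6, 92.1, 79.7 and 71.4 CPM in WT PP. It had 51.3, 56.1, 50.6, 70.2 and 75.01 CPM in S55L naive, against 78.3, 69.4, 81.9, 71.7 and 49.0 CPM in WT naive. These groups overlapped, and the 95% interval of the log2 fold change ran from -0.47 to 0.24 in PP and from -0.53 to 0.11 in naive hearts. The interval of the laminin chain Lamb1 ran from -0.60 to 0.01 and from -0.24 to 0.32. That of Nid1, which ties laminin to type IV collagen, ran from -0.67 to 0.36 and from -0.36 to 0.59.

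Among the other collagens, 3 of 6 tested genes were higher in S55L in both comparisons: Col8a1, Col14a1 and Col16a1. Col8a1, a short-chain collagen of vessel walls, had 255, 165, 218 and 219 CPM in S55L PP, against 32.6, 37.4, 27.8 and 67.4 CPM in WT PP. It had 87.4, 97.6, 115, 77.6 and 142 CPM in S55L naive, against 21.1, 25.3, 29.2, 12.0 and 16.3 CPM in WT naive. S55L and WT libraries were separated in both states, with log2 fold changes of 2.35 (SE 0.25, adjusted p = 1.6e-07, edgeR) in PP and 2.33 (SE 0.25, adjusted p = 6.9e-08, edgeR) in naive hearts. Col14a1, which attaches to the surface of fibrils, had 1.74 (SE 0.26) and 1.71 (SE 0.24), and Col16a1, of the same family, 1.65 (SE 0.31) and 2.02 (SE 0.32). The genes of type VI collagen, which forms beaded filaments near cells, did not pass. Col6a1 had intervals of -0.42 to 0.52 in PP and -0.50 to 0.36 in naive hearts, Col6a2 of -0.20 to 0.67 and -0.33 to 0.46, and Col6a3 of -0.59 to 0.40 and -0.33 to 0.61.

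Col8a2, the partner of Col8a1, was too low to test. It had 35 reads over the S55L PP libraries and 1 over the WT PP libraries, a CPM ratio of 21.1 (95% counting interval 3.54 to 855). It had 54 reads in S55L naive and 1 in WT naive, a ratio of 20.3 (95% counting interval 3.49 to 817). Such intervals cover counting error only. Col12a1, a fibril-associated collagen, had 0.280, 0.449, 1.62 and 3.43 CPM in S55L PP, against 0, 0, 0 and 0.717 CPM in WT PP. It had 0.834, 0, 1.11, 1.14 and 0.872 CPM in S55L naive, against 0, 0, 0.585, 0 and 0 CPM in WT naive. These values rest on 20 and 2 reads in S55L PP and WT PP, with a ratio of 6.02 (95% counting interval 1.46 to 53.1), and on 17 and 1 in S55L naive and WT naive, with a ratio of 6.39 (95% counting interval 1.001 to 267).

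The fibronectin and elastic fibre genes had a median log2 fold change of 1.69 in PP hearts, where 4 of 5 were higher, and of 2.03 in naive hearts, where all 5 were. Eln encodes elastin, the core of elastic fibres. It had 73.2, 73.2, 167 and 74.8 CPM in S55L PP, against 11.6, 18.4, 17.5 and 16.9 CPM in WT PP, and 56.3, 99.5, 159.7, 97.5 and 142 CPM in S55L naive, against 17.0, 13.9, 19.3, 24.7 and 16.3 CPM in WT naive. The S55L libraries lay above all WT libraries in both states, and S55L PP 4 stood above the other S55L PP libraries. The log2 fold change of Eln was 2.61 (SE 0.33, adjusted p = 4.8e-06, edgeR) in PP and 2.59 (SE 0.30, adjusted p = 8.7e-07, edgeR) in naive hearts, the lowest adjusted p of the class in both.

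Mfap5, a small glycoprotein of microfibrils, had 229, 198, 314 and 189 CPM in S55L PP, against 25.8, 91.0, 58.6 and 113 CPM in WT PP. In naive hearts it had 135, 159, 191, 111 and 228 CPM in S55L, against 30.9, 53.1, 38.6, 47.0 and 33.6 CPM in WT. The groups did not overlap, and the log2 fold changes were 1.69 (SE 0.33, adjusted p = 0.00065, edgeR) and 2.03 (SE 0.31, adjusted p = 3.8e-05, edgeR). Fbn1, the main protein of microfibrils, had 1.31 (SE 0.19) and 0.90 (SE 0.18) in PP and naive hearts, and Mfap4, an elastic fibre protein, 2.15 (SE 0.40) and 2.38 (SE 0.36). Fn1 encodes fibronectin, an early matrix protein on which collagen is laid down. It had 16.5, 20.2, 30.4 and 31.2 CPM in S55L PP, against 12.0, 20.7, 16.9 and 14.3 CPM in WT PP, and 12.3, 19.1, 17.8, 13.9 and 30.5 CPM in S55L naive, against 7.73, 11.4, 7.60, 11.5 and 8.41 CPM in WT naive. Fn1 was higher in naive S55L hearts without overlap, at 1.03 (SE 0.26, adjusted p = 0.0026, edgeR), but its PP groups overlapped, at 0.64 (SE 0.26, adjusted p = 0.064, edgeR). With the replicate number as a block, the PP value of Fn1 was 0.61 (adjusted p = 0.038, edgeR).

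**Figure D3:**
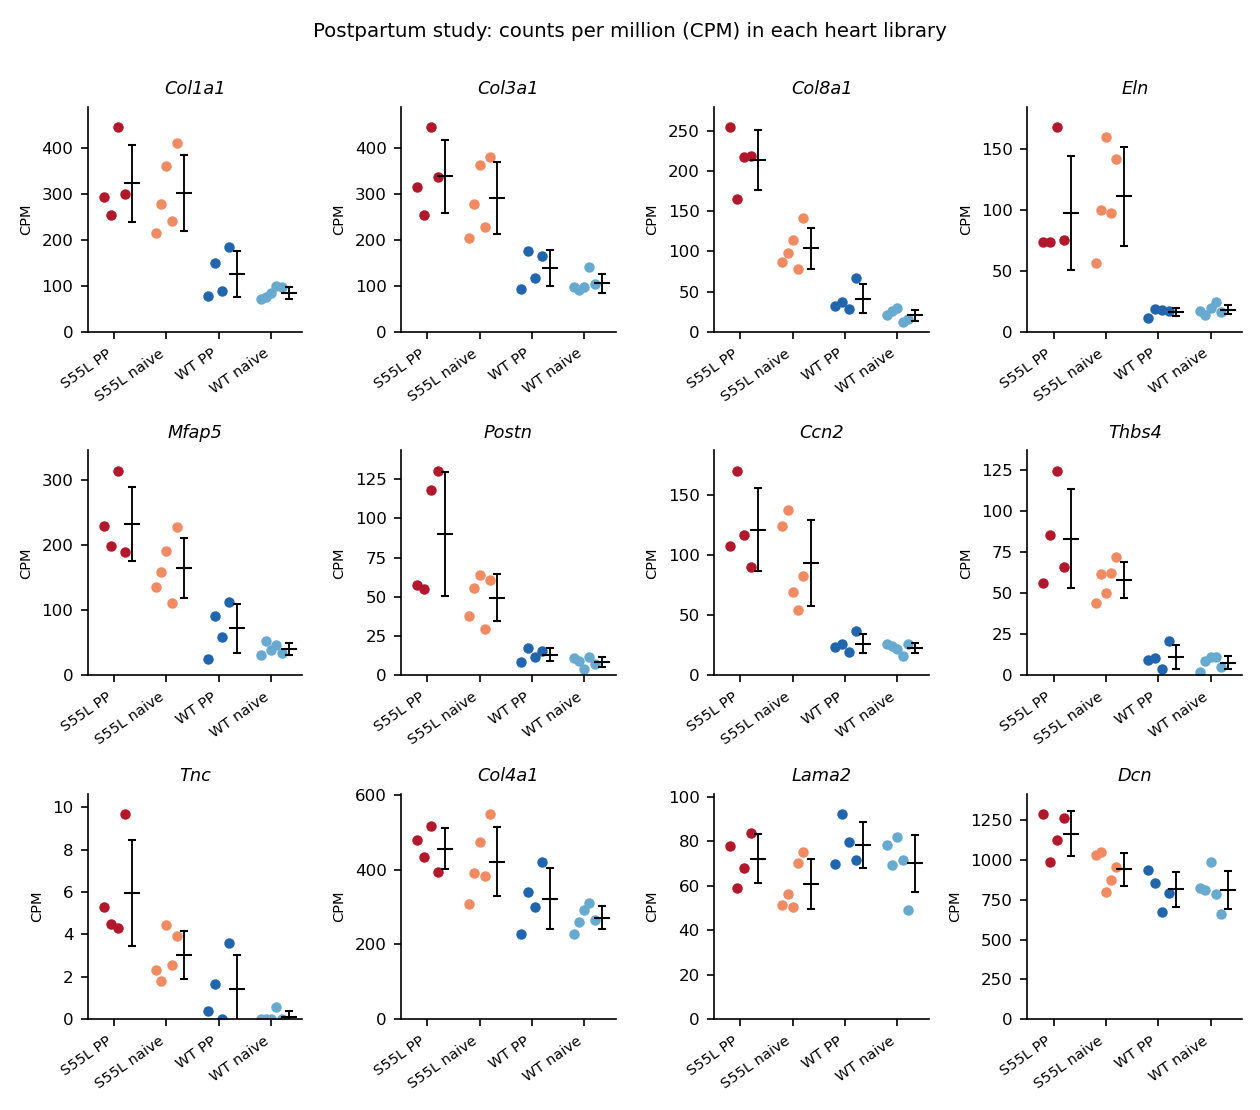
CPM of 12 matrix genes in each library (points) with mean and SD (black; bars are truncated at 0) in S55L PP (n = 4), S55L naive (n = 5), WT PP (n = 4) and WT naive (n = 5) hearts. S55L points lie above all WT points of their state for the genes shown except Col4a1 and Lama2 and, in naive hearts, Dcn.

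Of 6 tested matricellular genes, 5 were higher in S55L hearts in each comparison, and the class median was 2.05 in PP and 2.27 in naive hearts. Postn encodes periostin, a protein made by activated cardiac fibroblasts. It had 57.9, 55.05, 118 and 130.3 CPM in S55L PP, against 8.34, 17.3, 11.5 and 15.8 CPM in WT PP, and 37.5, 55.4, 63.8, 29.8 and 60.6 CPM in S55L naive, against 11.3, 8.98, 4.09, 11.5 and 7.42 CPM in WT naive. The groups of each state were separated. The log2 fold change of Postn was 2.78 (SE 0.34, adjusted p = 2.3e-06, edgeR) in PP and 2.51 (SE 0.33, adjusted p = 4.4e-06, edgeR) in naive hearts.

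Ccn2, also known as connective tissue growth factor, had the lowest adjusted p of the class in both comparisons. It had 108, 170.1, 117 and 89.8 CPM in S55L PP, against 23.6, 25.7, 19.3 and 37.3 CPM in WT PP, and 124, 138, 69.1, 54.6 and 82.4 CPM in S55L naive, against 26.3, 24.5, 21.6, 16.1 and 25.7 CPM in WT naive. No S55L library overlapped WT, with log2 fold changes of 2.18 (SE 0.27, adjusted p = 2e-06, edgeR) and 2.04 (SE 0.25, adjusted p = 1.1e-06, edgeR). Thbs4, a thrombospondin of muscle and tendon, had 56.5, 85.6, 124 and 65.8 CPM in S55L PP, against 9.07, 10.6, 3.62 and 21.2 CPM in WT PP. In naive hearts it had 43.8, 61.6, 49.9, 62.0 and 72.0 CPM in S55L, against 2.06, 8.98, 11.1, 11.5 and 4.95 CPM in WT. Its groups were separated, with log2 fold changes of 2.83 (SE 0.38, adjusted p = 1.2e-05, edgeR) in PP and 2.94 (SE 0.38, adjusted p = 4.7e-06, edgeR) in naive hearts.

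Tnc encodes tenascin-C, which is scarce in the healthy adult heart. It had 5.31, 4.49, 4.31 and 9.66 CPM in S55L PP, against 0.363, 1.67, 0 and 3.59 CPM in WT PP, and 2.29, 1.79, 4.46, 2.56 and 3.92 CPM in S55L naive, against 0, 0, 0, 0.574 and 0 CPM in WT naive. WT naive 4 held the single read of its group. The naive groups rest on 68 reads in S55L and 1 in WT, a CPM ratio of 25.6 (95% counting interval 4.44 to 1024), with an adjusted p of 0.00049 (edgeR). In PP hearts the log2 fold change of Tnc was 1.91 (SE 0.54, adjusted p = 0.007, edgeR), and 3.10 without WT PP 5. Sparc, which binds collagen, had 0.61 (SE 0.21) in PP and 0.88 (SE 0.19) in naive hearts.

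Thbs1, an activator of latent TGF-beta, did not pass in either comparison. It had 7.55, 9.66, 4.58 and 4.99 CPM in S55L PP, against 0.725, 0, 1.21 and 11.5 CPM in WT PP, and 2.29, 5.90, 2.68, 0.853 and 6.54 CPM in S55L naive, against 1.03, 0.817, 2.34, 1.15 and 1.98 CPM in WT naive. WT PP 5 stood above all S55L PP libraries and the other WT PP libraries below them. The PP log2 fold change was 0.84 (SE 0.68, adjusted p = 0.37, edgeR) with WT PP 5 and 3.31 (adjusted p = 0.00076) without it, and the naive value was 1.30 (SE 0.81, adjusted p = 0.2, edgeR). Spp1, which encodes osteopontin, was too low to test. It had 1.68, 1.35, 0.808 and 2.81 CPM in S55L PP, against 0, 0.558, 0 and 0 CPM in WT PP, a CPM ratio of 14.4 (95% counting interval 2.35 to 594) on 24 and 1 reads. It had 0.625, 0.179, 0.446, 0.569 and 0.872 CPM in S55L naive and 0 reads in WT naive, which makes it at least 1.504-fold higher in S55L naive against a floor of 3 reads over the group (0.347 CPM), while the lower 95% counting limit of the ratio is 1.04.

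Lox and Loxl1 were higher in S55L hearts in both comparisons, and Loxl2 did not pass in either. With plate column as a term Lox did not pass (adjusted p = 0.09 in PP and 0.096 in naive hearts, edgeR). Lox, which cross-links collagen and elastin, had 14.0, 12.1, 11.6 and 8.73 CPM in S55L PP, against 2.18, 1.12, 1.81 and 3.59 CPM in WT PP, and 2.92, 6.79, 9.14, 3.13 and 8.29 CPM in S55L naive, against 2.06, 2.45, 1.75, 0.574 and 0.495 CPM in WT naive. The groups of each state were separated, with log2 fold changes of 2.32 (SE 0.41, adjusted p = 6.5e-05, edgeR) in PP and 2.10 (SE 0.45, adjusted p = 0.00049, edgeR) in naive hearts. Loxl1, which acts mainly on elastin, had 105, 79.3, 109 and 79.8 CPM in S55L PP, against 23.6, 40.2, 30.8 and 50.9 CPM in WT PP. Its naive values were 69.6, 85.4, 98.6, 75.1 and 98.6 CPM in S55L, against 30.9, 40.8, 38.6, 31.0 and 29.7 CPM in WT. Loxl1 groups were separated as well, with 1.35 (SE 0.20, adjusted p = 4.9e-06, edgeR) and 1.33 (SE 0.18, adjusted p = 1.1e-06, edgeR), the lowest adjusted p of the class. For Loxl2 the 95% interval ran from -0.29 to 0.75 in PP and from -0.72 to 0.26 in naive hearts.

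All 5 proteoglycan genes were higher in S55L PP than in WT PP, and all but Dcn were higher in S55L naive than in WT naive. Bgn, which encodes biglycan, had 239.8, 211, 357 and 229 CPM in S55L PP, against 64.6, 128, 84.0 and 94.0 CPM in WT PP, and 198, 218, 341, 153 and 206 CPM in S55L naive, against 55.6, 75.9, 83.1, 82.0 and 87.6 CPM in WT naive. The groups did not overlap, and its log2 fold changes, 1.49 (SE 0.23, adjusted p = 1.4e-05, edgeR) and 1.54 (SE 0.21, adjusted p = 1.5e-06, edgeR), had the lowest adjusted p of the class. Dcn encodes decorin, which coats type I fibrils. It had 1288, 985, 1128 and 1264 CPM in S55L PP, against 937, 857, 675 and 792 CPM in WT PP, and 1033, 1048, 799.8, 877 and 955 CPM in S55L naive, against 823, 809.9, 989, 786 and 659 CPM in WT naive. The PP groups did not overlap, at 0.52 (SE 0.15, adjusted p = 0.011, edgeR), and the naive groups did, at 0.21 (SE 0.14, adjusted p = 0.21, edgeR). The difference between these fold changes, tested as an interaction, was 0.30 (95% interval -0.12 to 0.72, adjusted p = 1, edgeR).

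Fmod encodes fibromodulin, a further small proteoglycan of fibrils, and rested on few reads in WT. It had 102 reads in S55L PP and 3 in WT PP, a CPM ratio of 20.5 (95% counting interval 6.80 to 101) with an adjusted p of 1.8e-05 (edgeR). In naive hearts it had 135 reads in S55L and 4 in WT, and the log2 fold change was 3.51 (SE 0.62, adjusted p = 5e-05, edgeR). With plate column as a term the naive value became -1.29 (adjusted p = 0.56, edgeR). Vcan, a large proteoglycan of provisional matrix, had log2 fold changes of 1.29 (SE 0.31) in PP and 1.498 (SE 0.33) in naive hearts, and 1.95 in PP hearts without WT PP 5. Lum, which also regulates fibril width, had 0.52 (SE 0.19) and 0.56 (SE 0.17).

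Neither fibroblast identity gene passed the test. Tcf21, a transcription factor of cardiac fibroblasts, had 1.956, 3.82, 4.85 and 5.92 CPM in S55L PP, against 2.90, 3.91, 1.81 and 5.38 CPM in WT PP, and 4.59, 6.61, 9.59, 3.13 and 3.92 CPM in S55L naive, against 6.18, 5.72, 4.09, 2.87 and 1.48 CPM in WT naive. These groups overlapped, and the 95% interval of the log2 fold change was -0.72 to 1.08 in PP and -0.30 to 1.29 in naive hearts. Pdgfra, a growth factor receptor of fibroblasts, averaged 19.3 ± 3.77 CPM in S55L PP and 17.3 ± 4.03 in WT PP (SD, n = 4 each). It averaged 18.2 ± 2.29 CPM in S55L naive and 15.9 ± 3.52 in WT naive (SD, n = 5 each). Its intervals were -0.26 to 0.60 and -0.20 to 0.59.

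Some calls between S55L PP and WT PP did not hold when a library was left out. Of the 28 members, 6 lost the call in at least 1 fit that left out a library, and none of the 28 naive calls did. Col4a1 was lost without WT PP 1 (log2 fold change 0.37), WT PP 4 (0.47), S55L PP 1 (0.48), S55L PP 3 (0.52) or S55L PP 4 (0.43). Lum was lost without WT PP 1 (0.51), WT PP 3 (0.49), WT PP 4 (0.47) or S55L PP 5 (0.31), and Dcn without WT PP 4 (0.44). Col15a1 was lost without WT PP 1 (0.55), WT PP 4 (0.67), S55L PP 4 (0.67) or S55L PP 5 (0.64). Sparc was lost without WT PP 1 (0.47) or S55L PP 4 (0.41), and Col4a4 without WT PP 5 (0.79) or S55L PP 4 (0.63). Fn1 was gained in PP hearts without WT PP 3 (0.78) or S55L PP 1 (0.79). In naive hearts, Col4a2 was gained without WT naive 3 (0.51), WT naive 4 (0.52) or S55L naive 1 (0.50), and Col4a5 without WT naive 1 (1.12). All 3 WT PP reads of Fmod lay in WT PP 1 and the 1 WT naive read of Tnc in WT naive 4, so without that library the WT group stood at 0 reads and no fold is given (adjusted p = 1.4e-05 for Fmod and 0.00095 for Tnc, edgeR).

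Genotype and place on the library plate were nearly the same split. Of the S55L libraries, 6 lay in plate column 2 and 3 in column 3, and of the WT libraries 8 lay in column 1 and 1 (WT PP 1) in column 2. Within S55L, all naive libraries and S55L PP 5 lay in column 2, and S55L PP 1, 3 and 4 in column 3. State and plate column were thus nearly the same split in S55L hearts. With plate column as a term, 20 members were higher in S55L PP and 24 in S55L naive, and 0 were lower in either. That fit lost Lox (log2 fold change 1.98 in PP and 2.21 in naive hearts), Mfap4 (2.02 and 2.37), Col4a4 (0.15 and 0.57) and Fmod (2.32 and -1.29) in both comparisons. In PP hearts it also lost Vcan (1.36), Sparc (1.01), Col4a1 (0.78), Lamc1 (0.45) and Dcn (0.43) and gained Col4a5 (1.97). The naive comparison lost Lum (0.63) and gained Col4a2 (1.32). It ties the genotypes together only through WT PP 1, and the part of the plate in these results was not tested further. Reads from mitochondrially encoded genes also differed, at 9.52% to 15.5% in S55L PP, 13.9% to 15.2% in S55L naive, 16.8% to 24.6% in WT PP and 19.1% to 23.7% in WT naive, and without these genes 28 members were higher in each comparison.

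Genes that handle, degrade or sense matrix were counted in lists, beside 16.3% higher and 15.2% lower of all genes in PP hearts and 21.9% higher and 21.6% lower in naive hearts. A count near these shares is no result about its list. Of 19 tested genes for collagen processing and folding, 5 were higher and 0 lower in S55L PP than in WT PP, and 6 were higher and 1 lower in S55L naive than in WT naive. Adamts2, which cleaves procollagen, had log2 fold changes of 1.45 (SE 0.25) and 1.77 (SE 0.24) in PP and naive hearts, and Loxl3, a further lysyl oxidase, 1.92 (SE 0.24) and 1.53 (SE 0.24). P3h2, a prolyl hydroxylase of collagen, had 2.01 (SE 0.37) in PP hearts, and Fkbp10, a collagen chaperone, -1.72 (SE 0.33) in naive hearts. Of 16 matrix-degrading enzymes and inhibitors, 7 were higher and 3 lower in PP, and 6 were higher and 2 lower in naive hearts. Mmp15, a membrane-bound metalloproteinase, had -2.08 (SE 0.18) and -1.62 (SE 0.16) in PP and naive hearts. The metalloproteinase Mmp3 had 2.55 (SE 0.45) in PP hearts, and the inhibitor Timp4 -2.29 (SE 0.38) in naive hearts.

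Of 14 matrix receptors, 5 were higher and 0 lower in S55L PP, and 6 were higher and 2 lower in S55L naive. Lrp1, a clearance receptor, had log2 fold changes of 0.94 (SE 0.15) and 0.82 (SE 0.14) in PP and naive hearts, and Cd44, the hyaluronan receptor, 0.98 (SE 0.23) and 1.36 (SE 0.23). The integrin chain Itgb5 had 0.81 (SE 0.16) in PP hearts, and the integrin chain Itgb1 1.41 (SE 0.30) in naive hearts. Of 20 genes of TGF-beta signalling, 8 were higher and 2 lower in PP, and 10 were higher and 2 lower in naive hearts. Tgfb2, a ligand, had 3.10 (SE 0.31) and 2.45 (SE 0.29), and Tgif1, a repressor in this pathway, 2.40 (SE 0.34) and 2.98 (SE 0.37). Ltbp2, a relative of the latent TGF-beta binding proteins, had 242 reads in S55L PP against 1 in WT PP, a CPM ratio of 146 (95% counting interval 25.9 to 5773). It had 203 in S55L naive against 1 in WT naive, a ratio of 76.3 (95% counting interval 13.5 to 3029). Ltbp2 thus reached a test through the S55L libraries, and its place in the counts of its list is no independent support. Among 27 further matrix and basement membrane genes, 10 were higher and 4 lower in PP, and 9 were higher and 7 lower in naive hearts. The matricellular genes Ccn5 and Ccn4 had 3.83 (SE 0.44) and 2.50 (SE 0.34) in PP and 2.91 (SE 0.39) and 2.76 (SE 0.35) in naive hearts. The fibrillin Fbn2 had 3.14 (SE 0.43) in PP hearts, and the laminin chain Lamb3 -1.84 (SE 0.27) in naive hearts.

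Markers of other cell types were counted beside the same shares of all genes. Of 10 macrophage markers, 8 were higher in S55L PP and all 10 in S55L naive. Their sum ranged over 1389.6 to 2496 CPM in S55L PP, 1579 to 1929.6 in S55L naive, 421 to 530.3 in WT PP and 297 to 376 in WT naive. Of 8 cardiomyocyte markers, 7 were lower in each comparison, with sums of 33131 to 42389.9 CPM in S55L PP, 41229 to 53920.2 in S55L naive, 69407 to 81152 in WT PP and 69923 to 84216 in WT naive. Of 11 tested markers of activated fibroblasts and myofibroblasts, which include 2 members, 9 were higher and 1 lower in PP, and 9 were higher and 2 lower in naive hearts. Their sum was 1717 to 2339 CPM in S55L PP, 1672 to 3522 in S55L naive, 113 to 558 in WT PP and 162 to 363 in WT naive, with Cthrc1 at 0 in both WT groups and Comp at 0 in WT naive. Ltbp2 of this list held 1 read in WT PP and 1 in WT naive, so it reached a test through the S55L libraries. Markers so scarce in WT, such as Cthrc1, could reach a test in no other way. Calls of such markers are no independent support. Acta2 and Tagln of this list also stand in the list of smooth muscle and pericyte markers below, and their part in the sum above is not given here. The members Postn and Thbs4 averaged 90.4 and 83.1 CPM in S55L PP and 49.4 and 57.9 CPM in S55L naive, a small part of that sum. The sum therefore need not speak for the list as a whole. Of 10 resting fibroblast markers, 4 of which are members, 1 was higher in each comparison, and their sum was 2524 to 3269 CPM in S55L PP, 2360.4 to 3568 in S55L naive, 1876 to 2497 in WT PP and 1886 to 2573 in WT naive.

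Of 9 tested endothelial markers, 3 were lower in PP and 4 in naive hearts, against 15.2% and 21.6% of all genes, with sums of 742 to 1475 CPM in S55L PP, 969.6 to 1279.7 in S55L naive, 1307 to 1529 in WT PP and 1382 to 1701 in WT naive. Of 9 tested smooth muscle and pericyte markers, 1 was higher and 4 lower in PP, and 1 was higher and 7 lower in naive hearts, with sums of 1620.4 to 2288 CPM in S55L PP, 1752 to 3699.9 in S55L naive, 757 to 1058 in WT PP and 867 to 1085 in WT naive. The S55L sums thus lay above the WT sums although more markers were lower than higher, so the sums do not speak for the list as a whole. Erythroid markers were lower for 3 of 4 in naive hearts and for 0 in PP hearts, with sums of 3277 to 10063 CPM in S55L PP, 1483 to 2914 in S55L naive, 766 to 5456 in WT PP and 2730.5 to 5379.6 in WT naive. No marker of adipocytes or of monocytes, neutrophils and lymphocytes reached the level for a test, and Cd79a, a B cell marker, was at 0 in every group. Of 2 tested epicardial and mesothelial markers and 1 Schwann cell marker, 0 passed. The part of these markers in the matrix results was not tested.

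The second question is how matrix transcripts differ between postpartum and naive hearts of 1 genotype. No member passed in S55L PP against S55L naive or in WT PP against WT naive (edgeR, 0 of 42 in each), as against 0.0% of all 11945 genes in S55L and 0.0167% in WT. DESeq2 called Col8a1 in S55L hearts and 0 members in WT hearts. Without adjustment, p was below 0.05 for 11 members in S55L hearts, 10 of them with values above 0, and for 9 in WT hearts, all with values above 0, against 6.25% and 6.33% of all genes. The median log2 fold change of the members was 0.27 in S55L and 0.29 in WT hearts, with 36 and 35 of 42 above 0, where the medians of all genes were -0.0034 and -0.0047. S55L PP 1, 3 and 4 lay in plate column 3 and all S55L naive libraries in column 2, so state and plate column are hard to tell apart in S55L hearts.

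Col8a1 had the lowest p of the members in both genotypes. Every S55L PP library lay above every S55L naive library, as for 1.15% of all genes, and WT PP overlapped WT naive. The log2 fold change was 1.04 (SE 0.22, unadjusted p = 8.8e-05, adjusted p = 0.16, edgeR) in S55L hearts and 1.02 (SE 0.27, unadjusted p = 0.00082, adjusted p = 0.35, edgeR) in WT hearts. DESeq2 gave 1.06 (adjusted p = 0.021) in S55L hearts. In WT hearts the edgeR value was 0.67 without WT PP 5.

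Next to Col8a1, the members with an unadjusted p below 0.05 in S55L hearts included the fibre cross-linking genes Lox at 0.93 (SE 0.30) and Loxl2 at 0.59 (SE 0.23). They included the matricellular genes Postn at 0.86 (SE 0.27) and Tnc at 0.97 (SE 0.40), and the proteoglycans Vcan at 0.72 (SE 0.26), Lum at 0.39 (SE 0.17) and Dcn at 0.31 (SE 0.14). The others were Fbn1 at 0.42 (SE 0.17), Col5a2 at 0.46 (SE 0.18) and Col4a4 at -0.48 (SE 0.23). In WT hearts they were Fn1 at 0.77 (SE 0.30), Vcan at 0.93 (SE 0.37), Mfap5 at 0.84 (SE 0.33), Col1a1 at 0.55 (SE 0.24), Col5a2 at 0.49 (SE 0.22), Lum at 0.42 (SE 0.19), Lamb1 at 0.31 (SE 0.15) and Tnc. For Tnc, 14 reads in WT PP against 1 in WT naive gave a CPM ratio of 13.5 (95% counting interval 2.05 to 569). None of these passed after adjustment. Fn1 and Col5a2 were the members whose WT PP libraries all lay above the WT naive libraries, 2 of 42 against 0.896% of all genes.

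**Figure D4:**
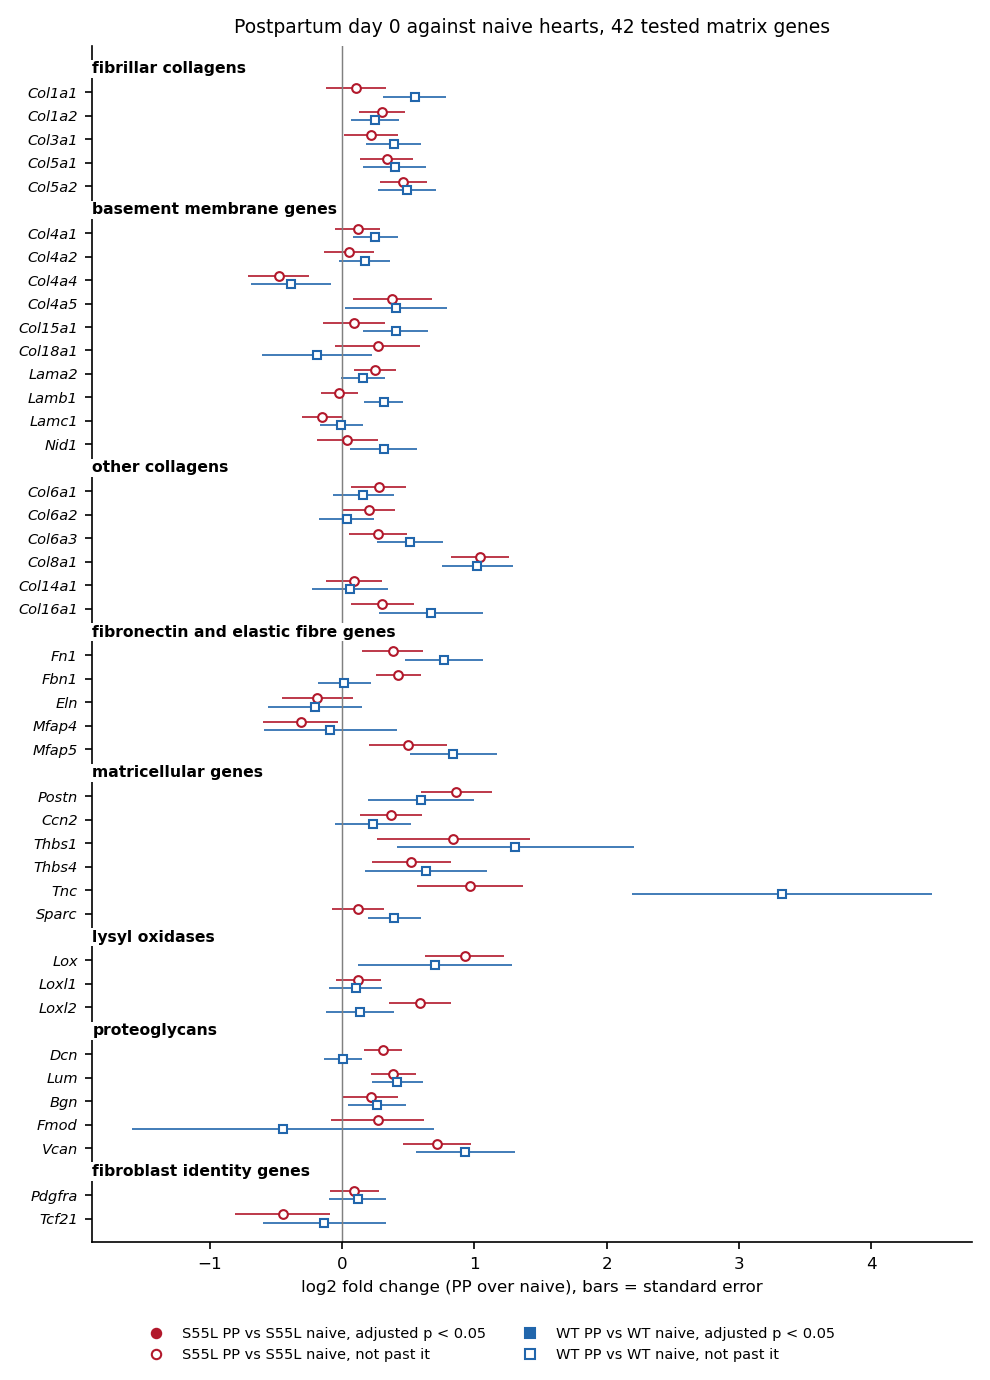
Log2 fold change of each tested matrix gene in S55L PP over S55L naive hearts (circles) and WT PP over WT naive hearts (squares), with standard errors, grouped by role. All symbols are open, since no member passed an adjusted p of 0.05 (edgeR), and 36 circles and 35 squares of 42 lie above 0.

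WT PP 5 was the highest WT PP library for 23 of 46 members, and WT PP 3 for 18. WT PP 5 stood at 11.5 CPM for Thbs1, where the others held 0 to 1.21 CPM, and at 18.3 CPM for Vcan, where the others held 4.83 to 6.89 CPM. Without it the WT PP against WT naive value was 0.30 for Col1a1, 0.27 for Vcan, 0.52 for Mfap5 and -1.17 for Thbs1, and 0 members were called.

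The third question is whether the postpartum difference depends on genotype. No member passed the interaction test (edgeR, 0 of 42, against 0.0% of all genes). DESeq2 and limma voom gave 0 members as well, and 0 members had an unadjusted p below 0.05 in edgeR, against 3.72% of all genes. The interaction values ranged from -2.36 (Tnc, 95% interval -4.91 to 0.19) to 0.71 (Fmod, -1.79 to 3.22), with a median of -0.05. Genes with more reads had narrower intervals: -0.46 to 0.57 for Col1a2, -0.59 to 0.54 for Col5a2, -1.13 to 0.24 for Col1a1, -0.67 to 0.57 for Bgn and -0.75 to 0.79 for Col8a1. Differences of any size within these intervals remain compatible with the data.

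The fourth question is whether EH301 alters matrix transcripts in S55L PP hearts. No member passed (edgeR, 0 of 41, against 0.0% of all 10335 genes), and DESeq2 gave 0. Without adjustment, 1 member had a p below 0.05, against 1.33% of all genes. The median log2 fold change was 0.02 for the members and 0.02 for all genes, and 23 of 41 members were above 0. By the codes in the column names, all EH301 libraries used lay in plate column 3 and the control diet libraries in columns 1 and 2. Diet and plate column therefore cannot be told apart.

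Pdgfra was the member with an unadjusted p below 0.05. It had 11.8, 9.73, 14.3 and 13.0 CPM on EH301, against 6.67, 8.68, 8.98 and 6.38 CPM on the control diet. All EH301 libraries lay above all control libraries, as for 0.929% of all genes. The log2 fold change was 0.65 (SE 0.27, unadjusted p = 0.03, adjusted p = 1, edgeR).

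Structural genes overlapped between the diets. Col1a1 had 301, 329, 211 and 299.8 CPM on EH301, against 178, 344, 284 and 219 CPM on the control diet, with a 95% interval of the log2 fold change of -0.46 to 0.76. Col3a1 had 156, 75.9, 106 and 149 CPM on EH301, against 75.6, 212, 160.4 and 119 CPM on the control diet (interval -0.96 to 0.49). Type V collagen had the narrowest interval of all members, -0.49 to 0.53 for Col5a2. Col4a1, of the basement membrane, had 577, 815, 407 and 722 CPM on EH301, against 709.5, 561, 503 and 509 CPM on the control diet (interval -0.49 to 0.78). Lama2 had 130.4, 64.2, 105 and 93.1 CPM on EH301, against 57.8, 122, 95.8 and 87.0 CPM on the control diet (interval -0.51 to 0.72).

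Genes that were high in S55L hearts of the postpartum study also overlapped between the diets. Col8a1 had 278, 169, 139 and 229 CPM on EH301, against 307, 196, 182 and 206 CPM on the control diet (interval -0.75 to 0.52). Elastin, from Eln, had 85.1, 64.2, 100.0 and 115 CPM on EH301, against 44.5, 148, 106 and 46.9 CPM on the control diet (interval -0.75 to 0.85). For periostin, Postn had 55.7, 20.4, 29.3 and 39.1 CPM on EH301, against 8.90, 50.2, 38.6 and 25.9 CPM on the control diet (interval -0.70 to 0.99). Changes of any size within these intervals remain compatible with the data from 4 libraries a diet.

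**Figure D5:**
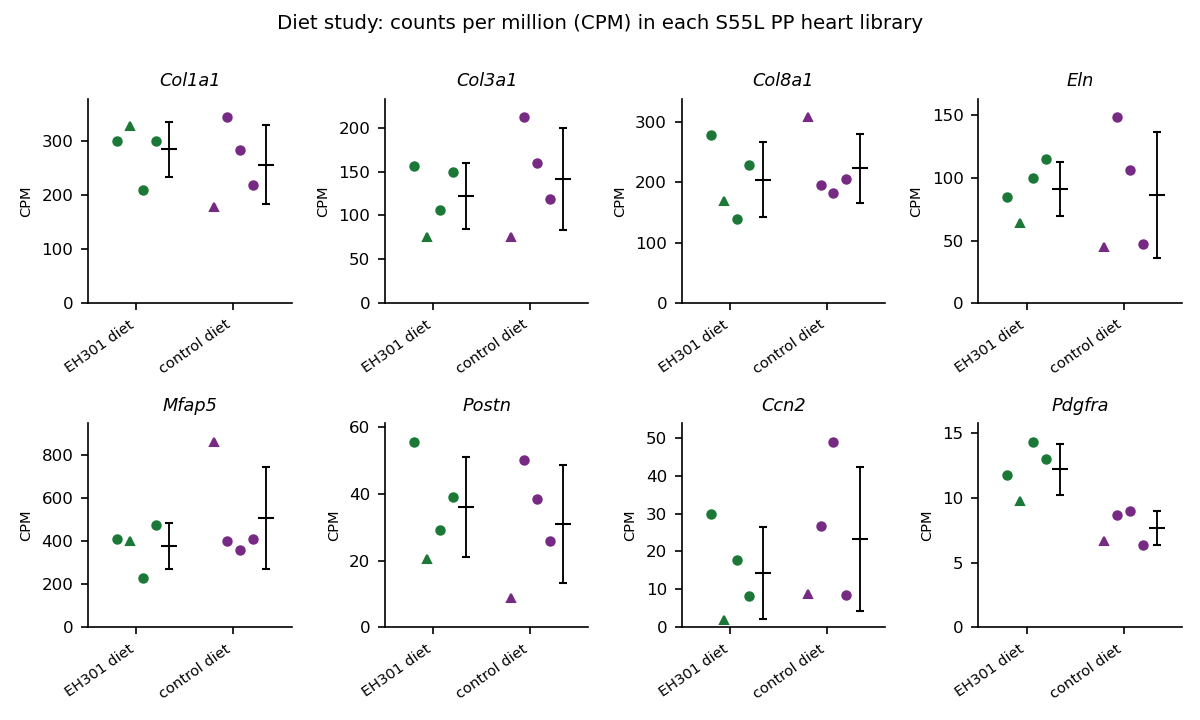
CPM of 8 matrix genes in each S55L PP heart library of the diet study (points) with mean and SD (black), on EH301 (n = 4) and control diet (n = 4). Triangles mark the shallow libraries EH301 diet 8 and control diet 1, and the diets overlap for all genes shown except Pdgfra.

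The matricellular gene Ccn2 had 29.8, 1.95, 17.8 and 8.19 CPM on EH301, against 8.90, 26.8, 48.9 and 8.63 CPM on the control diet (interval -2.01 to 0.60). Thbs4 had 10.7, 3.89, 9.87 and 6.33 CPM on EH301, against 2.22, 10.6, 9.98 and 3.75 CPM on the control diet, and Tnc had 17.0, 2.92, 4.46 and 8.19 CPM on EH301, against 13.3, 7.55, 8.32 and 9.75 CPM on the control diet. Libraries of the diets overlapped for each of these genes. Mfap5 had 409, 399.9, 229 and 474 CPM on EH301, against 863, 402, 361 and 410.3 CPM on the control diet, where control diet 1 stood above all others. The cross-linking gene Lox had 37.4, 38.9, 12.7 and 34.6 CPM on EH301, against 24.5, 29.8, 27.9 and 22.5 CPM on the control diet, and was lowest in EH301 diet 9. Fn1 had 27.7, 19.5, 29.3 and 31.3 CPM on EH301, against 8.90, 37.7, 38.3 and 19.5 CPM on the control diet, and Dcn had 589.9, 264, 622 and 538 CPM on EH301, against 323, 647, 624 and 457 CPM on the control diet. The untested genes Spp1, Thbs1, Tcf21 and Col12a1 stayed at or below 4.45, 6.67, 2.42 and 4.45 CPM in every diet library.

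EH301 diet 8 and control diet 1 were the shallowest libraries and stood apart from the rest. Bgn had 2855 CPM in EH301 diet 8 and 2896 CPM in control diet 1, where the others held 965 to 1892 CPM. Col1a2 had 30.2 and 24.5 CPM in these libraries, where the others held 48.8 to 125 CPM. Their share of reads from mitochondrially encoded genes was also the lowest, at 11.9% and 6.95%, against 16.9% to 24.6% in the others. Without both libraries 0 members were called, the value of Pdgfra was 0.69 and that of Ccn2 was -0.62.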

How the data were processed

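Hearts of 6 groups were profiled by 3′-end RNA sequencing (QuantSeq), with 5 deposited columns per group in a postpartum table and a diet table. The deposited values were raw counts of reads per gene, made by the authors with tools that the submitters' processing notes list as Trimmomatic 0.39, STAR 2.7.0f, HTSeq 0.6.1 and DESeq2 3.21, with a build written GRCm39.p6. Lines that name no gene were left out: reads not uniquely placed were 17.5% to 27.3% of reads in the postpartum table and 35.2% to 39.1% in the diet table, ambiguous reads 4.45% to 7.08% and 1.97% to 2.50%, and reads on no feature 5.65% to 10.1% and 1.43% to 1.74%. Gene IDs were matched to GENCODE symbols for 51487 and 52073 genes, which held 99.4% and 99.8% of the reads on genes.

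Columns with identical counts were used once within a group (WT PP 1 and 2, S55L PP 1 and 2) and left out across diets (control diet 5 and EH301 diet 6). The 18 postpartum libraries and the 8 diet libraries were fitted apart with edgeR 4.0.16 (R 4.3.3): filterByExpr, TMM scaling, robust quasi-likelihood test, Benjamini-Hochberg adjustment over all genes tested and a threshold of 0.05. Standard errors and 95% intervals of log2 fold changes follow from the F statistic and its degrees of freedom. Fits were tested on simulated data. DESeq2 1.42.0 and limma 3.58.1 voom were alternatives, as were other scalings, filters, depths, libraries, a plate column term and a replicate block. Chain ratios were compared with exact two-sided permutation tests in SciPy 1.17.1, chosen after seeing the data.

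Deviations from the group means were correlated between S55L PP and WT PP libraries of equal number (r from 0.12 to 0.33 over 4 pairs), which meets the criterion for pairing over 0.1; the reported fits carry no replicate block, which was run as an alternative, and the chain ratios were compared unpaired; every other pair of groups held at least 1 pair of libraries with r of 0.1 or less. The members, the related and marker lists and the panel were chosen with earlier results of these data known. Every member could be named; values in every library are given for 18 panel genes and for the called member with the lowest adjusted p of each class, and up to 3 called genes per related list, of which 1 is not reported here. Pdgfra on the diets was added after its values were seen. Upstream windows are from RefSeq (GRCm38.p6); 17 members had no entry. The limits of counting intervals cover counting error only.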

Additional observations from a re-analysis of the deposited data

Results flagged for a closer look

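In 107 groups of 4 or 5 libraries, 12 held a library whose gap to its nearest neighbour was large against the group's range by Dixon's 95% criterion, which chance alone meets in about 1 of 20 groups. Among structural genes, Col3a1 stood at 141 CPM in WT naive 4, where the others held 89.8 to 103 CPM, and Eln at 167 CPM in S55L PP 4, where the others held 73.2 to 74.8 CPM. Mfap5 stood at 863 CPM in control diet 1, where the others held 361 to 410.3 CPM, and Lox at 12.7 CPM in EH301 diet 9, where the others held 34.6 to 38.9 CPM.

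Thbs1 stood at 11.5 CPM in WT PP 5, where the others held 0 to 1.21 CPM, and at 6.67 CPM in control diet 1, where the others held 1.89 to 2.63 CPM. Spp1 stood at 4.45 CPM in control diet 1, where the others held 0 to 0.755 CPM.

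The remaining flags rest on a few reads. Col12a1 was at 0 CPM in S55L naive 2, where the others held 0.834 to 1.14 CPM, and its reads in WT came from WT PP 5 (0.717 CPM) and WT naive 3 (0.585 CPM) alone. Spp1 was at 0.558 CPM in WT PP 3 and at 0 in the other WT PP libraries, and Tnc at 0.574 CPM in WT naive 4 and at 0 in the other WT naive libraries.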

How the results depend on the processing

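The count of members higher in S55L PP and in S55L naive was 28 and 28 as reported, 28 and 29 with DESeq2 size factors, 28 and 28 with the DESeq2 test, 31 and 31 with no filter on low counts, 29 and 28 with all deposited columns, 25 and 27 with libraries thinned to 1418715 reads, 24 and 27 with only the groups compared, and 20 and 24 with plate column as a term. With each library left out it ranged from 24 to 28 and from 28 to 29. Scaling by total counts shifted the median of all genes by 0.27 in PP and 0.24 in naive hearts, with 33 and 31 members higher, and split the calls over all genes into 3458 higher and 977 lower in PP hearts, against 16.3% and 15.2% of genes as reported, and into 4013 and 1481 in naive hearts, against 2614 and 2578. With plate column as a term the calls over all genes were 1070 higher and 1038 lower in PP and 1386 and 1487 in naive hearts. No member was called lower in either genotype comparison under these settings. With the replicate block, 29 members were higher in each, adding Fn1 in PP and Col4a2 in naive hearts (0.43, adjusted p = 0.017, edgeR).

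Between PP and naive hearts, 1 member was higher in WT with no filter (Col8a1) and 2 in S55L (Col8a1 and Postn), and 1 in S55L, Col8a1, with the DESeq2 test or with all deposited columns. With each library left out, 0 members were called there, in the interaction and between the diets. Fmod in naive hearts was -1.29 with plate column as a term and 3.51 without. The causes were not tested. Values of members that were not called changed sign in 329 cases over all settings. Few reads limit Col4a3, Col12a1, Spp1, Col8a2, Tnc and Fmod.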
